A study of Mus musculus with 6 samples.

Results

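Zinc is held and moved in the hepatocyte by a small set of proteins, and the mRNAs of 8 of them were followed here in mouse liver after treatment with FGF19. Mt1 and Mt2 encode metallothioneins, cysteine-rich proteins that bind zinc and copper. Mtf1 encodes the zinc-sensing transcription factor that binds metal response elements in metallothionein genes. Slc39a14, Slc39a8 and Slc39a1 encode ZIP transporters, which carry metal into the cytosol, and Slc30a1 and Slc30a10 encode ZnT transporters, which carry it out. The 8 genes were taken by name from the 23284 genes of the count files by a rule that uses no measured value. All 8 passed the filter on low counts and were among the 12559 genes tested.

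The samples were Liver RNA of C57BL/6 mice at 8 weeks of age, 3 given Vehicle and 3 given FGF19 with 1 library per mouse, and the study's methods describe its mice as male. All mice were fasted overnight, and the fast went on for the 6 h of treatment, with an FGF19 dose of 1 mg/kg. FGF19 is the human intestinal hormone that corresponds to mouse FGF15. The comparison addresses the response of liver mRNAs to this hormone in the fasted state, at 1 dose and 1 time. Total counts were between 18994654 and 22920056 per library, and the limit set by a gene without reads, taken as 3 counts for counting error only, was 0.136 to 0.159 CPM (TMM-scaled counts per 1e6 reads). A gene is said to have passed when its Benjamini-Hochberg adjusted p in the quasi-likelihood test of edgeR was under 0.05. The 5 hepatocyte markers tested had log2 fold changes between -0.35 and -0.06, of which 2, those of Cps1 and Hnf4a, had an unadjusted edgeR p under 0.05 and 0 passed. Their summed level was between 89933 and 94976 CPM with vehicle and between 82401 and 93850 CPM with FGF19. In whole liver, a change in the number of cells of a type and a change in RNA per cell cannot be told apart.

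The metallothionein genes lie side by side on chromosome 8 of mm9. Mt2 (chr8:96696518-96697467) ends 5521 bases before Mt1 (chr8:96702989-96704227), both on the plus strand, and each has 3 exons with no exon shared with another listed gene. Metallothionein and ZnT1 genes are the textbook targets of MTF1, so the core of the metal response element was searched from 250 bases before to 50 bases after the start that the files give each gene. The letters searched were TGCACNC and TGCGCNC on both strands. Matches outside this window were not counted, and no start was compared with a measured start of transcription. Mt1 held 3 matches, Mt2 held 4, Slc30a1 held 2 and Slc30a10 held 3, of which 1 pair overlaps on opposite strands. Mtf1 and Slc39a1 held 0. Slc39a14 and Slc39a8 also held 0 in the windows at the starts given in the files, but the window of Slc39a8 shares a run of only 134 bases with the promoter that RefSeq gives it, and that of Slc39a14 was not compared with a RefSeq promoter. Among 23099 genes with such a window, 29.6% held at least 1 match, 8.77% at least 2, 2.46% at least 3 and 0.606% at least 4. Among the other ZIP and ZnT genes, Slc30a4 (did not pass) and Slc30a8 (not tested) held 3, and Slc39a10 (did not pass) held 2. Slc30a5, Slc39a7 and Slc30a7, which passed, held 1, 0 and 0. A match describes the letters only and is not evidence of binding. The 250 bases before the start are shown for the 4 of the 8 genes with a match, from the mm9 genome and read 5′ to 3′ on the gene's strand, with the matches in capitals.

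Mt1, chr8:96702739-96702988, plus strand: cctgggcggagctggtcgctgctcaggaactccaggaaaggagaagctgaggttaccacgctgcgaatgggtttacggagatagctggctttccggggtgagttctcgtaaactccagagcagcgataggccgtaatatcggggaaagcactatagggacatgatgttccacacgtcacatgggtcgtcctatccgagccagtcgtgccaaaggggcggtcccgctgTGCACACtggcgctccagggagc
Mt2, chr8:96696268-96696517, plus strand: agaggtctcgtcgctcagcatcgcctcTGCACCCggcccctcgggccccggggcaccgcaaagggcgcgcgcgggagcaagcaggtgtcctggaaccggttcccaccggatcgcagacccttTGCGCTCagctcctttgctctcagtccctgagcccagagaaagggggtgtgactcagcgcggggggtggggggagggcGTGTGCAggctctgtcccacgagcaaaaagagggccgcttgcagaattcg
Slc30a1, chr1:193730410-193730659, plus strand: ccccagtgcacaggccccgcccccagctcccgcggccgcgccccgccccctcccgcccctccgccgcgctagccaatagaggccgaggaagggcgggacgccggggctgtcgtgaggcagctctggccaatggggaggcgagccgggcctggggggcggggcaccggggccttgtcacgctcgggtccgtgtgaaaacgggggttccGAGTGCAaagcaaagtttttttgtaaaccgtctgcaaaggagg
Slc30a10, chr1:187278477-187278726, plus strand: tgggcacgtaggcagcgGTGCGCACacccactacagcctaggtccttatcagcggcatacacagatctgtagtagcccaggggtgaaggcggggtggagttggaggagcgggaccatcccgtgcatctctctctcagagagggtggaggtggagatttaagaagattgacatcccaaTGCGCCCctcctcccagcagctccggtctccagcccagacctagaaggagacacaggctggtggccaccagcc

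**Figure D1:**
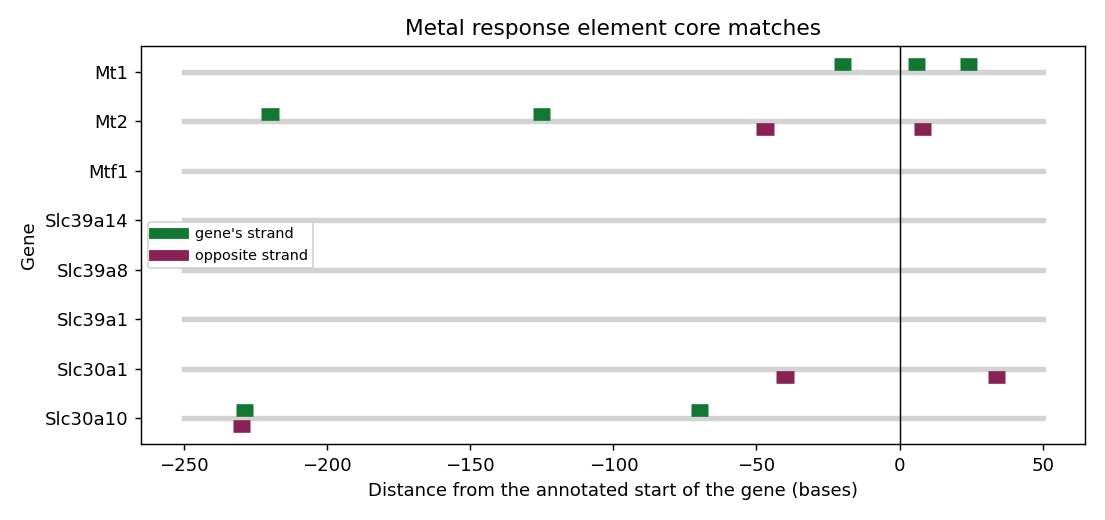
Positions of the metal response element core (TGCACNC or TGCGCNC) from 250 bases before to 50 bases after the annotated start of each of the 8 genes, with distance from the start in bases on the horizontal axis and bars above the grey line for the gene's strand and below it for the opposite strand. The 3 matches of Mt1 lie between 23 bases before and 27 bases after the annotated start, and those of Mt2 are spread from 223 bases before to 11 bases after it. Annotated starts were not compared with measured starts of transcription.

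Of the 8 genes, 4 passed, all higher in FGF19-treated mice. They were Mt1, Slc30a10, Slc39a1 and Slc30a1, with fold changes between 1.29 and 3.22. Over all genes tested 7.41% passed, and 4.56% passed and were higher. The same 4 genes had p under 0.01, the threshold of the study's methods, which 11.2% of all genes passed. They were also the 4 in which every FGF19-treated mouse was above every vehicle-treated mouse, where the groups of 28.3% of all genes did not overlap. Mt2, Mtf1, Slc39a14 and Slc39a8 did not pass, and their groups overlapped. The median log2 fold change of the 8 genes was 0.39, beside 0.00 for all genes tested.

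**Figure D2:**
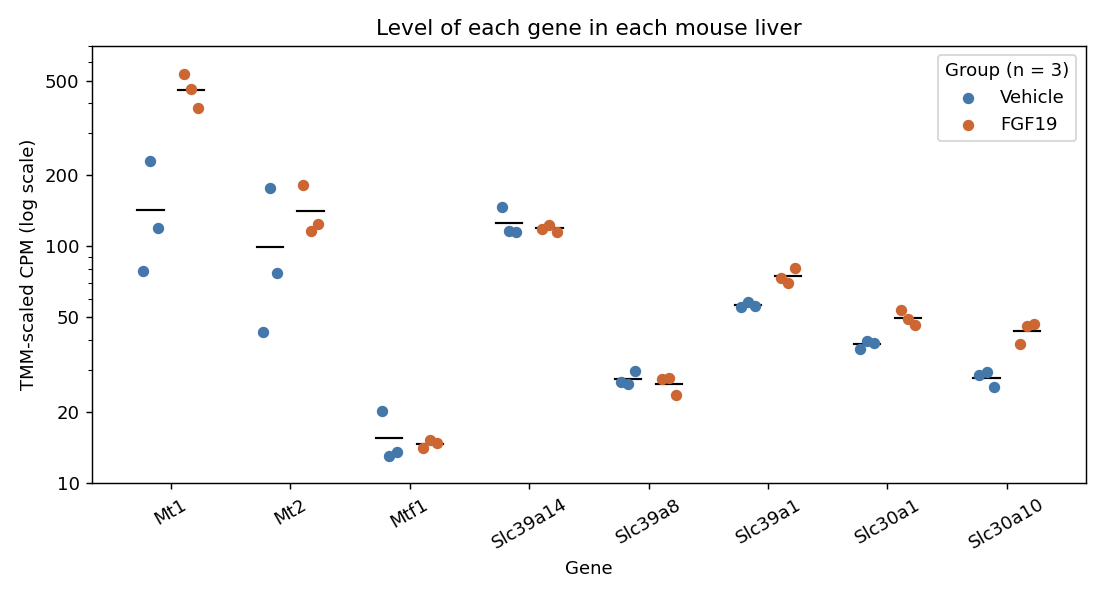
Level of each of the 8 genes in each mouse liver, in TMM-scaled CPM on a log axis, with 3 Vehicle libraries in blue, 3 FGF19 libraries in orange and the group mean as a bar. Mt1, Slc39a1, Slc30a1 and Slc30a10 have all FGF19 points above all Vehicle points, and the Vehicle points of Mt1 and Mt2 are the most spread.

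Mt1 had the largest change of the 8. It was at 78.6, 228 and 120 CPM in vehicle replicates 1, 2 and 3, and at 531, 459 and 383 CPM in FGF19 replicates 1, 2 and 3. The lowest FGF19-treated mouse was above the highest vehicle-treated mouse, and the group mean was 142 ± 77.1 CPM with vehicle and 458 ± 73.9 CPM with FGF19 (SD, n = 3 each). This was a rise of 1.69 ± 0.32 on the log2 scale (standard error, edgeR adjusted p = 0.0141), or 3.22-fold with a 95% interval from 1.96 to 5.31. By size of change, Mt1 was number 87 of the 12559 genes tested. The call was lost when vehicle replicate 3 was left out (log2 fold change 1.58, edgeR adjusted p = 0.0752, where the alternatives gave between 1.26e-05 and 0.0752) and held in the other 13 alternatives.

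Mt2, the neighbouring metallothionein, did not pass. Its level was 43.5, 176 and 76.7 CPM in vehicle replicates 1, 2 and 3 and 182, 116 and 124 CPM in FGF19 replicates 1, 2 and 3. Vehicle replicate 2 was above FGF19 replicates 2 and 3, and the groups overlapped. The difference was 0.51 ± 0.41 on the log2 scale (standard error, edgeR adjusted p = 0.517), and the 95% interval of the fold ran from 0.753 to 2.69. Vehicle replicate 2 decided this call, since without it the log2 fold change was 1.22 with an edgeR adjusted p of 0.0331. The other 13 alternatives left Mt2 above an adjusted p of 0.05.

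The balance between both metallothionein mRNAs differed between the groups in every mouse. Counts of Mt1 per count of Mt2, a ratio within a library that needs no scaling, were 1.81, 1.29 and 1.56 with vehicle and 2.92, 3.97 and 3.09 with FGF19. The mean ratio was 1.55 ± 0.257 (SD, n = 3) and 3.33 ± 0.56 (SD, n = 3). The difference of the log2 ratios was 1.10, and the exact two-sided permutation test over the 6 mice gave p = 0.1, the smallest value that 3 against 3 can reach. Leaving out each library in turn gave differences between 0.97 and 1.21. Exon lengths of 542 and 556 bases are nearly equal, so gene length adds little to this ratio.

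Together, Mt1 and Mt2 took 0.0123%, 0.0401% and 0.0197% of all counts in vehicle replicates 1, 2 and 3. With FGF19 they took 0.0715%, 0.0591% and 0.0489%. Each FGF19-treated mouse was above each vehicle-treated mouse, the means differed 2.49-fold, and the exact two-sided permutation test over the 6 mice gave p = 0.1, its smallest value. Vehicle replicate 2 weighed most on this fold, which was 3.74 without it and between 2.001 and 2.72 with 1 of the other 5 libraries left out. The exact permutation p was 0.2 without FGF19 replicate 1 or 2 and 0.1 without each of the other 4. Mt3 and Mt4, the metallothionein genes best known from brain and from squamous epithelium, had 0 counts in every library and were not tested.

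**Figure D3:**
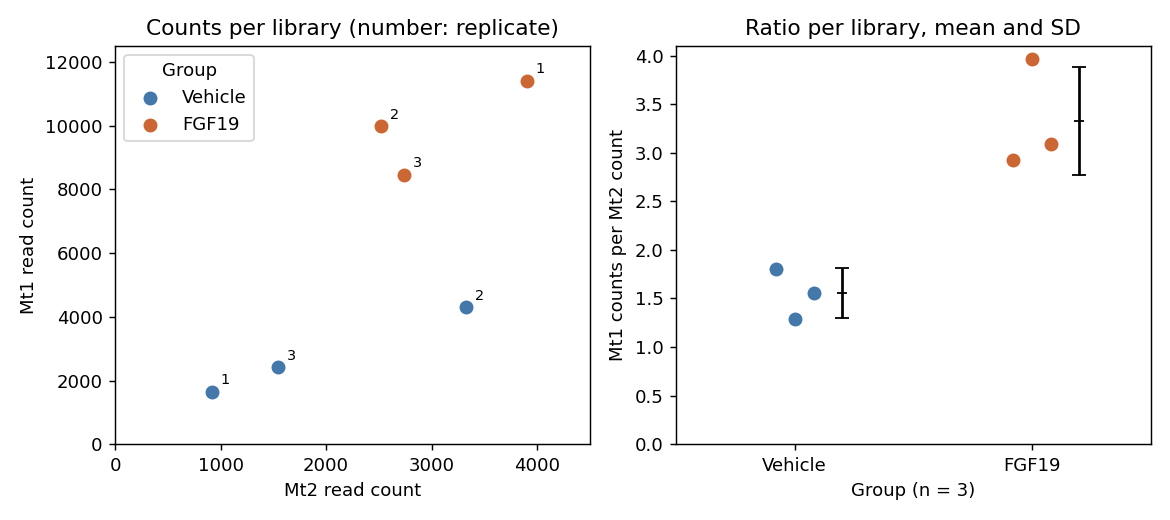
Left, Mt1 read count against Mt2 read count in each library, with the replicate number beside each point. Right, Mt1 counts per Mt2 count in each library by group (n = 3), with mean and SD. Vehicle replicate 2 has more Mt2 counts than FGF19 replicates 2 and 3 and fewer Mt1 counts than either, and the ratios lie between 1.29 and 1.81 with vehicle and between 2.92 and 3.97 with FGF19.

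The metallothionein mRNAs also varied most among mice of the same group. Among vehicle-treated mice the highest level was 2.90 times the lowest for Mt1 and 4.05 times for Mt2, with coefficients of variation of 54.3% and 69.8%. The other 6 genes had coefficients of variation between 2.71% and 25.3% in the same mice. In FGF19-treated mice the coefficients of variation were 16.1% for Mt1 and 25.5% for Mt2. Vehicle replicate 2 was the highest vehicle library for both genes and vehicle replicate 1 the lowest for both.

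Mtf1, the zinc sensor itself, was at 20.1, 13.0 and 13.5 CPM in vehicle replicates 1, 2 and 3 and at 14.0, 15.1 and 14.8 CPM in FGF19 replicates 1, 2 and 3. Vehicle replicate 1 was above all other libraries and the other 2 vehicle libraries were below all FGF19 libraries. The fold change was 0.94, with a 95% interval from 0.727 to 1.22 (edgeR adjusted p = 0.803). Its sign depended on vehicle replicate 1, since without it the log2 fold change was 0.14 (edgeR adjusted p = 0.579). The level of Mtf1 mRNA is not a measure of the activity of the protein, which zinc binding sets. An exon of Mtf1 overlaps the gene 1110065P20Rik, which had between 67 and 110 counts in a library, and reads were counted without strand.

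The ZnT exporters were both higher. Slc30a10 (chr1:187278727-187292640), which exports manganese from hepatocytes and other cells, was at 28.6, 29.4 and 25.5 CPM in vehicle replicates 1, 2 and 3 and at 38.5, 45.8 and 46.6 CPM in FGF19 replicates 1, 2 and 3. The groups were separate, and the level rose 1.57-fold (95% interval 1.33 to 1.85, edgeR adjusted p = 0.00744). Of the 8 genes it was the only one whose call held in all 14 alternatives run, with log2 fold changes between 0.59 and 0.73. Its exons overlap the gene Gm2061, which had between 14 and 51 counts in a library where Slc30a10 had between 514 and 1030.

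Slc30a1 (chr1:193730660-193737126), which encodes ZnT1, the zinc exporter of the plasma membrane, was at 36.9, 39.5 and 38.9 CPM in vehicle replicates 1, 2 and 3 and at 53.5, 49.2 and 46.4 CPM in FGF19 replicates 1, 2 and 3. The groups did not overlap, and the rise was 1.29-fold (95% interval 1.13 to 1.49, edgeR adjusted p = 0.0373). This call was lost when vehicle replicate 1, 2 or 3 or FGF19 replicate 1 or 2 was left out, with edgeR adjusted p of 0.123, 0.0869, 0.130, 0.156 and 0.105, and held without FGF19 replicate 3 (adjusted p = 0.0104). The log2 fold change stayed between 0.31 and 0.42 in these 6 fits. Its exons overlap the gene 1700034H15Rik, which had at most 10 counts in a library.

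The ZIP importers did not move together. Slc39a1 (chr3:90052114-90057534), which encodes the broadly expressed plasma membrane importer ZIP1, was at 55.1, 58.0 and 55.6 CPM in vehicle replicates 1, 2 and 3 and at 73.5, 69.8 and 80.9 CPM in FGF19 replicates 1, 2 and 3. The groups were separate and the rise was 1.33-fold (95% interval 1.16 to 1.52, edgeR adjusted p = 0.0228). Leaving out vehicle replicate 1, 2 or 3 or FGF19 replicate 1 took the edgeR adjusted p to 0.0818, 0.0578, 0.0998 and 0.0778, and the log2 fold change stayed between 0.35 and 0.46 with each library left out.

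Slc39a14 (chr14:70703274-70751231) encodes ZIP14, which takes up zinc, manganese and iron into hepatocytes and is known for its induction by interleukin-6. It was at 146, 116 and 115 CPM in vehicle replicates 1, 2 and 3 and at 118, 123 and 115 CPM in FGF19 replicates 1, 2 and 3. The ranges overlapped, with vehicle replicate 1 the highest library. The fold change was 0.944, with a 95% interval from 0.80 to 1.11 (edgeR adjusted p = 0.703). Without vehicle replicate 1 the log2 fold change was 0.04 (edgeR adjusted p = 0.864). In the same libraries 19 of 20 acute phase and interleukin-6 response genes passed, all higher, with a median log2 fold change of 1.63. That list was chosen with the rise of acute phase genes in these samples known, and its part in the changes of the 8 genes was not tested.

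Slc39a8 (chr3:135488455-135551536) encodes ZIP8, the closest relative of ZIP14 and like it a carrier of zinc and manganese. It was at 26.8, 26.1 and 29.6 CPM in vehicle replicates 1, 2 and 3 and at 27.5, 27.6 and 23.5 CPM in FGF19 replicates 1, 2 and 3. The groups overlapped, and the fold change was 0.953 (95% interval 0.812 to 1.12, edgeR adjusted p = 0.748). Without FGF19 replicate 3 the log2 fold change was 0.01 (edgeR adjusted p = 0.968). The upper ends of the intervals of Slc39a14 and Slc39a8, 1.11-fold and 1.12-fold, were below the 1.29-fold rise of Slc30a1. The interval of Slc30a1 itself began at 1.13-fold, and differences between genes were not tested.

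**Figure D4:**
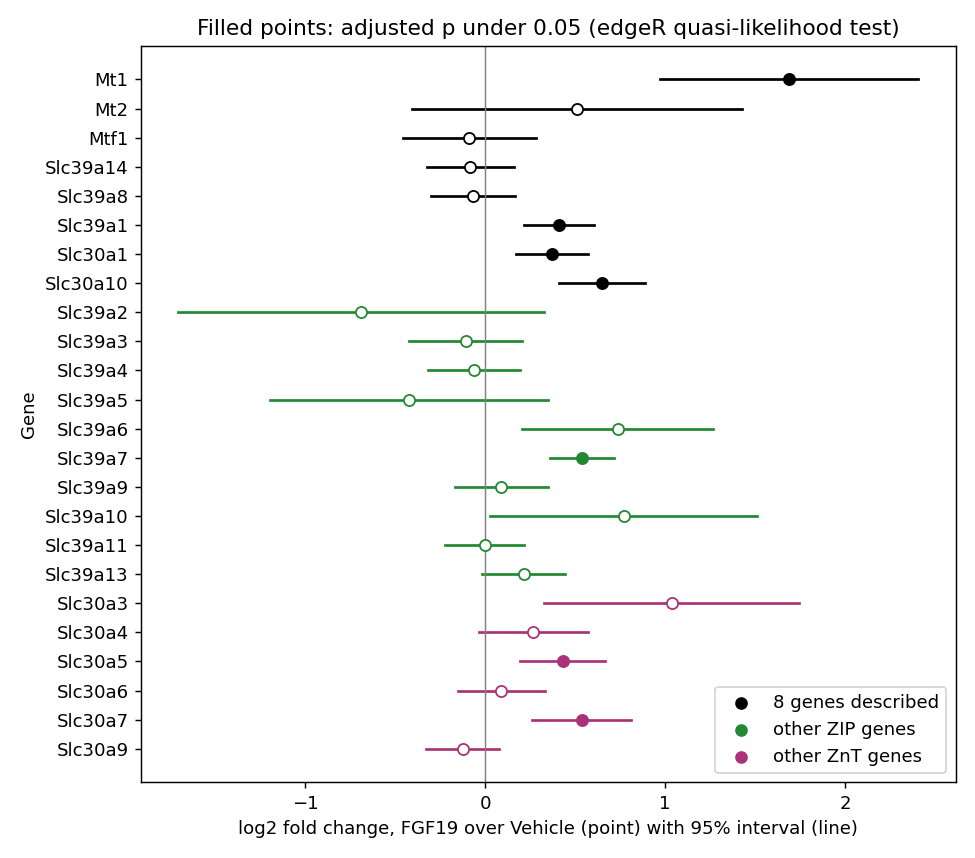
Fold change between FGF19 and Vehicle on the log2 scale (point) with its 95% interval (line) for the 8 genes in black, the other ZIP genes tested in green and the other ZnT genes tested in purple, with filled points for genes that passed (edgeR adjusted p under 0.05). Mt1 lies at 1.69, the called transporters lie between 0.37 and 0.65, and Slc39a14, Slc39a8 and Mtf1 lie within 0.09 of 0.

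Levels of different genes were compared per kilobase of exon. With vehicle, Mt1 was at 262 ± 142 and Mt2 at 178 ± 124 CPM per kilobase (SD, n = 3), with Mt1 above Mt2 in each library although the ranges of this pair over the 3 mice overlapped. Slc39a14 at 24.1 ± 3.36 and Slc39a1 at 24.0 ± 0.649 CPM per kilobase followed, again with overlapping ranges. Below them, Slc39a8 at 7.42 ± 0.509 and Slc30a1 at 7.35 ± 0.263 CPM per kilobase overlapped, and Slc30a10 at 4.77 ± 0.352 and Mtf1 at 2.04 ± 0.515 CPM per kilobase were lower in every library. Among the 12559 genes tested, Mt1 was number 270 from the top per kilobase with vehicle.

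With FGF19 both exporters and Slc39a1 stood higher in this order. Mt1, at 844 ± 136 CPM per kilobase, was again above Mt2, at 253 ± 64.4, in every library, here with ranges that did not overlap, and was number 81 from the top. Slc39a1, at 31.9 ± 2.41 CPM per kilobase, was above Slc39a14, at 22.8 ± 0.813, in every library. Slc30a1 was at 9.50 ± 0.683 CPM per kilobase, above Slc39a8 at 7.07 ± 0.625 in every library, and Slc30a10 at 7.48 ± 0.764 overlapped Slc39a8. Mtf1 stayed lowest, at 1.92 ± 0.0747 CPM per kilobase.

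The other members of the zinc transporter families were read in the same way. Of 11 other ZIP genes 10 were tested, and 1 passed, with a median log2 fold change of 0.04 (2 passed with the likelihood ratio test, with the exact test and without FGF19 replicate 3). It was Slc39a7, which encodes ZIP7, the carrier that releases zinc from the endoplasmic reticulum. It was at 85.4, 87.8 and 83.6 CPM in vehicle replicates 1, 2 and 3 and at 125, 127 and 120 CPM in FGF19 replicates 1, 2 and 3, with no overlap (edgeR adjusted p = 0.00395). Its call held in all 14 alternatives, with log2 fold changes between 0.52 and 0.57.

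Of 8 other ZnT genes 6 were tested, and 2 passed, both higher, with a median log2 fold change of 0.35 (3 passed with the likelihood ratio test, with the exact test and without FGF19 replicate 3). They were Slc30a5 and Slc30a7, which encode ZnT5 and ZnT7, carriers that load zinc into the early secretory pathway. Slc30a5 was at 32.4, 29.7 and 32.0 CPM with vehicle and at 43.4, 46.4 and 37.0 CPM with FGF19, with a log2 fold change of 0.43 and an edgeR adjusted p of 0.038. Slc30a7 was at 22.0, 20.8 and 21.6 CPM with vehicle and at 32.0, 35.7 and 25.9 CPM with FGF19, with a log2 fold change of 0.54 and an edgeR adjusted p of 0.030. Both groups of values were separate, with FGF19 replicate 3 the lowest treated library for both. Neither gene passed with libraries scaled by total count alone, nor with any single library other than FGF19 replicate 3 left out, where the edgeR adjusted p rose to at most 0.141 for Slc30a5 and 0.118 for Slc30a7.

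Manganese and copper share carriers and binding proteins with zinc. Of 5 other genes of manganese handling 3 passed, all higher. Slc11a2, which encodes the divalent metal transporter DMT1, rose from 28.5 to 41.6 CPM (log2 fold change 0.54, adjusted p = 0.00485). Sod2, the mitochondrial manganese superoxide dismutase, rose from 172 to 254 CPM (log2 fold change 0.57, adjusted p = 0.00412), and both calls held in all 14 alternatives. Tmem165, a Golgi protein of manganese supply, was at 8.34 CPM with vehicle and 12.0 CPM with FGF19, with an edgeR adjusted p of 0.0321. This rose to between 0.0657 and 0.125 when any single library other than FGF19 replicate 3 was left out, and to 0.0841 with the replicate number as a block. Atp2c1, the manganese and calcium pump of the Golgi, had a log2 fold change of -0.10 and did not pass.

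Of 11 genes of copper handling, 2 passed, 1 higher and 1 lower. Cp, ceruloplasmin, the copper protein of plasma and also a known acute phase protein, rose from 1264 to 1907 CPM (log2 fold change 0.59, edgeR adjusted p = 0.0103), and did not pass without vehicle replicate 3 or FGF19 replicate 1 (0.0614 and 0.0544). Ccs, the copper chaperone of Sod1, fell from 195 to 145 CPM (log2 fold change -0.42, edgeR adjusted p = 0.0253). Its adjusted p rose to between 0.059 and 0.125 when any single library other than FGF19 replicate 3 was left out, and to 0.0623 with the replicate number as a block. Of 4 other genes known to respond to metals or MTF1, namely Gclc, Sepw1, Ndrg1 and Slc40a1, 0 passed, 2 (Ndrg1 and Slc40a1) had an unadjusted edgeR p under 0.05, and their log2 fold changes were between -0.56 and 0.38.

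**Figure D5:**
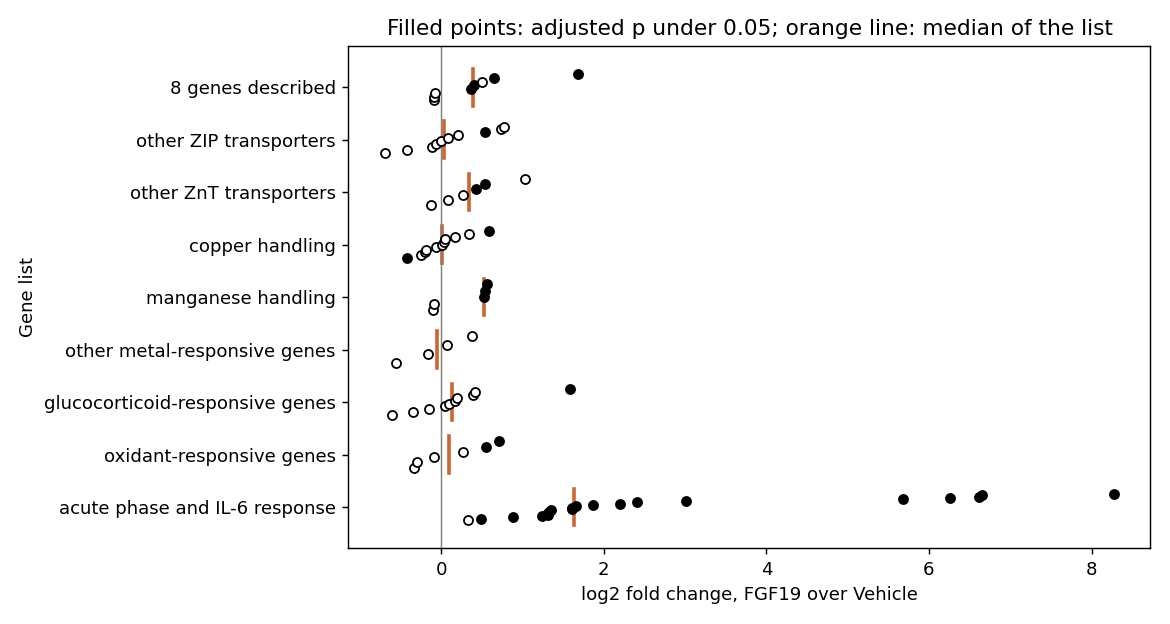
Log2 fold change between FGF19 and Vehicle for every tested gene of each list, with filled points for genes that passed (edgeR adjusted p under 0.05) and an orange line at the median. The 8 genes have a median of 0.39 and the other ZIP genes of 0.04, and the acute phase list has 19 of 20 filled points and a median of 1.63.

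The genes whose levels were most like Mt1 over the 6 libraries were Eef2k, Tspyl2, H1f0, Vangl1 and Tubb5, with Pearson r between 0.991 and 0.994 for log2 CPM, taken from 7542 genes with a mean of at least 10 CPM. For Slc39a14 they were Dcaf11, Stip1, Spop, Rab9 and Ogfrl1, with r between 0.971 and 0.991. With 6 libraries in 2 groups these values describe a shared order of libraries and carry no test. Among the 8 genes themselves, r was 0.83 between Mt1 and Mt2, 0.94 between Mt1 and Slc30a1, and 0.96 between Mtf1 and Slc39a14, which were both highest in vehicle replicate 1. Every pair of Mt1, Slc39a1, Slc30a1 and Slc30a10, the genes that passed, had r between 0.81 and 0.94. A difference between the groups enters each of these values, and 71 of the 7542 genes had r over 0.95 with Mt1.

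Markers of other liver cells were read beside these results. Of 7 Kupffer cell and macrophage markers 1, the scavenger receptor gene Marco, passed (log2 fold change 2.29, edgeR adjusted p = 0.00105), while Emr1 (log2 fold change 0.36) and Vsig4 (-0.54) had an unadjusted p under 0.05 in opposite directions. The list had a median log2 fold change of 0.04 and summed to between 180 and 226 CPM with vehicle and between 182 and 215 CPM with FGF19. The 4 neutrophil markers in the files summed to between 2.19 and 3.18 CPM with vehicle and between 5.70 and 8.41 CPM with FGF19, and 1 of 2 tested, S100a9, was higher (adjusted p = 0.0292 in edgeR's test). The other, Csf3r, had a log2 fold change of 0.82 and groups that did not overlap, and did not pass (unadjusted p = 0.00777, edgeR adjusted p = 0.0773). Of 5 stellate cell markers 1, Colec11, was lower (log2 fold change -0.75, adjusted p = 0.00878 in edgeR's test), while Reln (-0.46) and Lrat (0.33) had an unadjusted p under 0.05 in opposite directions and the median of the list was -0.17. Of the tested markers of sinusoidal endothelial cells, cholangiocytes, lymphocytes, erythroid cells and acinar cells 0 passed in edgeR's test, and 3 of them, Clec4g, Cd79a and Alas2, had an unadjusted p under 0.05. The acinar gene Ctrb1 had 0 counts in every library. So did the globin genes Hbb-b1 and Hba-a1, which have near-identical copies, and since reads with several alignments were left out, these zeros do not measure erythroid RNA. Alas2, the erythroid enzyme of heme synthesis, was at 57.2 to 78.6 CPM with vehicle and 43.6 to 57.5 CPM with FGF19. The 3 adipocyte markers summed to at most 0.136 CPM. The part of these cells in the changes of the 8 genes was not tested.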

How the data were processed

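Liver RNA of 6 mice was sequenced as paired-end reads, 1 library per mouse. The authors aligned the reads with STAR (2.5.3a in the submitters' processing notes, while the paper's methods name another version) to mm9 and assigned them to exons with featureCounts 1.5.2, so that the deposited value of each gene is a raw read count without normalization. The file headers show that strand was not used, that mates were counted separately and that reads with several alignments were left out. The authors' deposited table of their own comparison, which holds fold changes, mean levels and p-values, was not used.

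The counts were tested with edgeR 4.0.16 under R 4.3.3. Of 23284 genes, 12559 passed filterByExpr and were scaled by TMM, the trimmed mean of M-values. Groups were compared with the quasi-likelihood test without covariates, and p-values were adjusted by Benjamini-Hochberg over the whole table. The paper's methods name an edgeR pipeline and a threshold of p under 0.01, and not the kind of test. CPM (counts per 1e6 reads) used the scaled library sizes, and CPM per kilobase divided it by the exon length in the files. Standard errors came from the fold change and the F statistic. In simulated data of this comparison (12461 genes tested), the test recovered 94 of 100 genes changed by 1 and 99 of 100 changed by 2 on the log2 scale, with 11 unchanged genes called. Every simulated gene had the same spread among libraries (edgeR common dispersion 0.0163), and changes under 1 were not simulated. The recovery therefore does not measure power for genes that vary more among mice, such as Mt1 and Mt2, or for smaller changes.

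Tried as alternatives were limma-voom (limma 3.58.1), DESeq2 1.42.0, edgeR's exact and likelihood ratio tests, total counts in place of TMM, all genes in place of the filter, a minimum of 1 CPM per library, the replicate number as a block, and leaving out each library. Named were the 8 genes, the genes of the related lists with an adjusted p under 0.05, and, for Mt1 and Slc39a14, the 5 genes most like each over the 6 libraries. The genes of related and marker lists that are named without passing were chosen after their values were seen. Of the acute phase list only the count and the median are given. For 1 gene of the manganese list no value is reported here. The members and lists were chosen with earlier results of these data known. Upstream sequences were read from the mm9 genome at the starts given in the files.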

Additional observations from a re-analysis of the deposited data

How the results depend on the processing

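With limma-voom, DESeq2, the exact or likelihood ratio test, total-count scaling, no filter or a minimum of 1 CPM per library, the count of members below an adjusted p of 0.05 was 4 of 8. With each library left out in turn, between 1 and 4 of the 8 passed an adjusted p under 0.05 (1 without vehicle replicate 3), between 3 and 5 passed p under 0.01, and the groups of 4 to 5 did not overlap. The same fits tested between 12658 and 12737 genes. Of these, between 343 and 1941 had an adjusted p under 0.05, where 930 passed with all libraries (1941 without FGF19 replicate 3 and at most 600 without any of the other 5). Between 906 and 2158 had p under 0.01, where 1405 passed with all libraries. The groups of 4320 of 12658 genes did not overlap without FGF19 replicate 2, the lowest count. Without FGF19 replicate 3 the groups of 6252 of 12692 genes did not overlap, the highest count. In that fit the groups of 4 of the 8 members did not overlap, a share near that of all genes. FGF19 replicate 3 differed from FGF19 replicates 1 and 2 by a chi-square per degree of freedom of 29.7 and 39.4 over genes, and those from each other by 8.25, while vehicle libraries differed by 15.7 to 28.1. The part of this in the counts was not tested. The log2 fold change was between -0.20 and 0.14 for Mtf1, between -0.14 and 0.038 for Slc39a14 and between -0.11 and 0.0074 for Slc39a8 with each library left out, and changed sign in 1 of 14 alternatives for each. Same-numbered libraries of both groups did not deviate together (r between -0.18 and -0.03, and 0 of 3 vehicle libraries were closest to their own number). The deviations were taken from group means of 3 mice, so these r values are not independent. They cannot settle whether the numbers pair the mice. With the replicate block 534 genes and 2 of the 8, Mt1 and Slc30a10, had an adjusted p under 0.05. Alternatives for genes outside the 8 were chosen after seeing the data.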

Other observations

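Metallothionein genes are known to respond to glucocorticoids and to oxidants as well as to metals, so lists of genes known for these responses were counted beside them. Of 10 glucocorticoid-responsive genes 1 passed (edgeR adjusted p under 0.05), with a median log2 fold change of 0.13. It was Cdkn1a, a cell cycle inhibitor also known to respond to p53, at 21.6, 57.4 and 18.6 CPM in vehicle replicates 1, 2 and 3 and at 73.4, 114 and 104 CPM in FGF19 replicates 1, 2 and 3. Its edgeR adjusted p of 0.0344 rose to 0.109, 0.115 and 0.106 without vehicle replicate 1, vehicle replicate 3 and FGF19 replicate 2. Vehicle replicate 2, the vehicle library with the most Mt1 and Mt2, was the highest of the 3 vehicle libraries for 4 of the 10 genes and the lowest for 5. It had the most Cdkn1a, Dusp1 (41.9 CPM, against 26.9 and 41.0 CPM in vehicle replicates 1 and 3), Fkbp5 (163 CPM, against 112 and 57.1 CPM) and Zbtb16 (61.9 CPM, against 4.43 and 12.1 CPM). It had the least Per1 (32.2 CPM, against 50.8 and 55.9 CPM), Tsc22d3 (74.0 CPM, against 143 and 86.3 CPM), Errfi1 (1140 CPM, against 1728 and 1778 CPM), Tat (1956 CPM, against 3025 and 2445 CPM) and Sgk1 (16.0 CPM, against 42.8 and 28.5 CPM). These genes were picked with their values known, and their part in the spread of the metallothioneins was not tested.

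Of 6 oxidant-responsive genes tested 2 passed, both higher. Hmox1, heme oxygenase, rose from 15.8 to 25.9 CPM (log2 fold change 0.71, edgeR adjusted p = 0.0166, and 0.0531, 0.0536 and 0.0695 without vehicle replicate 1, vehicle replicate 2 and FGF19 replicate 2). Srxn1, sulfiredoxin, rose from 62.7 to 92.3 CPM (log2 fold change 0.56, edgeR adjusted p = 0.00908), and passed in all 14 alternatives. Nqo1, Gclm, Txnrd1 and Gsr did not pass. Of these, Gclm (log2 fold change -0.33, edgeR adjusted p = 0.0714) and Gsr (0.27, edgeR adjusted p = 0.126) had groups that did not overlap, in opposite directions, with an unadjusted p under 0.01 for Gclm and under 0.05 for Gsr, and Nqo1 and Txnrd1 had log2 fold changes of -0.29 and -0.08.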
